A study of Danio rerio with 6 samples.

Results

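Whether the transcripts that pattern the dorsoventral axis differed between mondoa morphants and control morphants at blastula stage was examined for 6 genes, chosen by name and identifier out of the 32054 genes counted. They were vox (ENSDARG00000099761), vent (ENSDARG00000100483), bmp2b (ENSDARG00000041430), bmp4 (ENSDARG00000019995), chrd (ENSDARG00000006110) and gsc (ENSDARG00000059073). The tested embryos had been injected with mondoa-mo, a morpholino that blocks translation of mondoa mRNA. The control embryos had been injected with mondoa-mis, a morpholino with mismatched bases. Both were injected into the yolk at the 1-cell stage and age-matched at 4 hpf, when the controls were at sphere stage, and RNA-seq was carried out on 3 samples of pooled whole zebrafish embryos per condition. No uninjected embryos were compared here, so that every embryo in the comparison carried a morpholino, and a morpholino lowers a protein without removing the gene.

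In the zebrafish blastula, maternal beta-catenin signalling on the future dorsal side starts the organizer programme, while Bmp ligands spread ventral identity over the rest of the blastoderm. Ventral cells express the homeodomain repressors Vox, Vent and Ved, which keep organizer genes such as gsc and chrd out of the ventral side. Organizer cells in turn secrete Chordin, which binds Bmp ligands and keeps them from their receptors.

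Of the 6 genes, vox and bmp2b were higher and vent was lower in mondoa morphants, with no overlap between conditions. The mean of chrd was also lower in mondoa morphants, but 1 mondoa-mo library lay within the range of the controls. The level of gsc did not pass the test, and bmp4 was counted too rarely to be tested. In total, 4 of the 5 genes tested changed at an adjusted p under 0.05 (edgeR, quasi-likelihood test), where 32.3% of all 15511 genes tested did so. Of these 4, chrd was at 0.049 and lost its call in 6 of 13 alternatives in the processing. The 6 genes were chosen with earlier results of these data known, so that the shares do not test whether such genes changed more often. Higher genes made up 16.9% and lower genes 15.4% of those tested, so that a changed gene was common in this comparison. The groups did not overlap for 47.8% of all genes tested. RNA came from whole embryos, where fewer cells of a type and less RNA per cell cannot be told apart.

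The libraries held between 20685326 and 32100726 counts. Replicate libraries differed far more among mondoa-mo than among mondoa-mis injected embryos, with a biological coefficient of variation (the spread beyond counting noise) of 0.11 against 0.0189. The sources name triplicate RNA samples, which the study calls biological replicates, and do not say whether they came from separate clutches. The p-values therefore measure the spread between these samples, which may be partly technical. For chrd and gsc, mondoa-mo replicate 3 stood apart from the other mondoa-mo libraries, and their results are given with and without it. The transcript of the targeted gene, listed as MLXIP (ENSDARG00000059474), was at 298, 327 and 349 CPM in mondoa-mo libraries and at 278, 273 and 267 CPM in mondoa-mis libraries. It was higher in mondoa morphants without overlap (log2 fold change 0.25, SE 0.0577, edgeR adjusted p = 0.0074). CPM stands for counts relative to library size after TMM normalization. A morpholino that blocks translation is not read from mRNA counts, so this transcript checks no label.

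**Figure D1:**
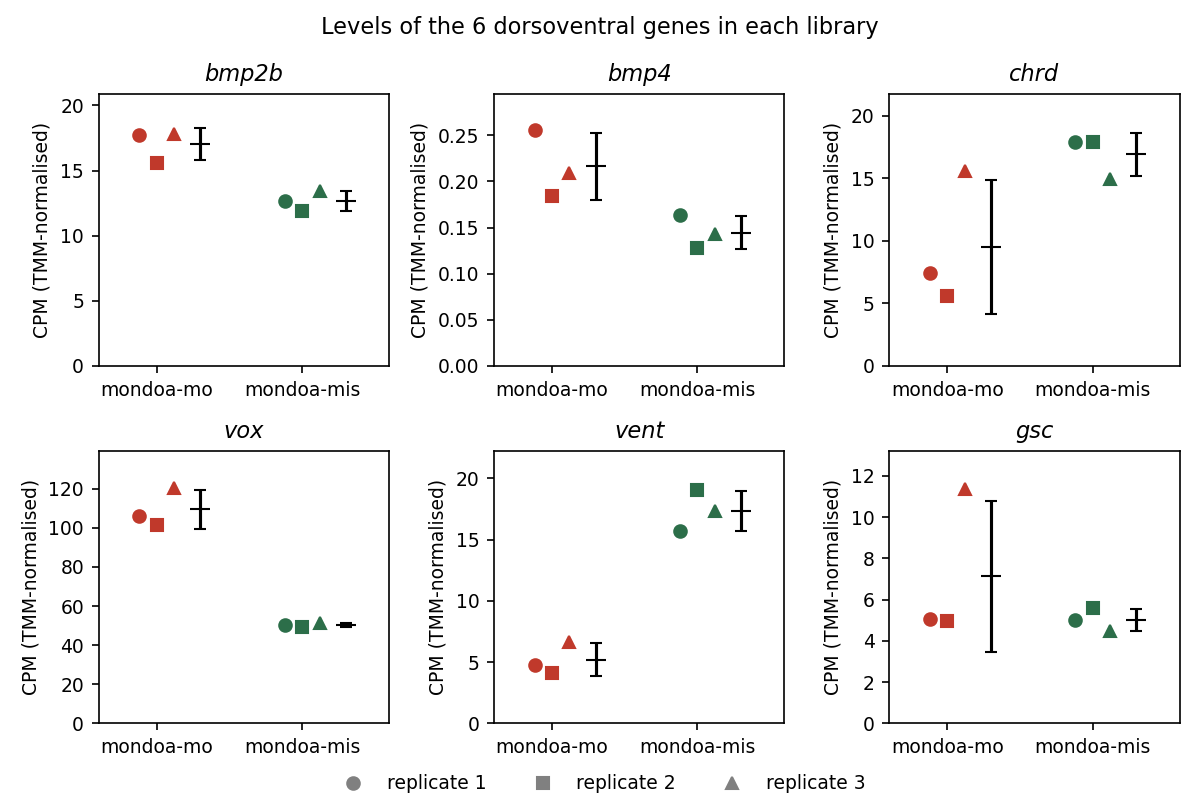
Level of each of the 6 genes in every library, in TMM-normalized CPM on axes that start at 0, with mondoa-mo libraries in red and mondoa-mis libraries in green. Symbols mark replicate numbers and bars mark mean ± SD (n = 3): vox and bmp2b lay higher and vent lower in every mondoa-mo library, whereas mondoa-mo replicate 3 stood apart for chrd and gsc.

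The most abundant of the 6 transcripts was vox. Its level was 106, 102 and 120 CPM in mondoa-mo libraries and 50.4, 49.3 and 51.5 CPM in mondoa-mis libraries. All mondoa-mo libraries were well above all controls, and the groups did not overlap. The means were 109 ± 9.79 CPM in mondoa morphants and 50.4 ± 1.13 CPM in controls (SD, n = 3 each), a log2 fold change of 1.12 (SE 0.0682, edgeR adjusted p = 3.1e-06), or 2.17-fold. By log2 fold change vox ranked 179 among the 2621 genes higher in mondoa morphants. A called increase of at least 1 on the log2 scale, as seen for vox, was found in 1.57% of the genes tested.

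The second homeodomain repressor, vent, moved the opposite way. Its level was 4.77, 4.10 and 6.68 CPM in mondoa-mo libraries and 15.7, 19.0 and 17.3 CPM in mondoa-mis libraries, from 89 to 160 counts against 364 to 447 counts. The highest mondoa-mo library was below the lowest control. The means were 5.18 ± 1.34 CPM in mondoa morphants and 17.4 ± 1.64 CPM in controls (SD, n = 3 each), a log2 fold change of -1.74 (SE 0.159, edgeR adjusted p = 3.5e-05), or 3.35-fold lower. It ranked 81 among the 2396 genes lower in mondoa morphants, and a called decrease of at least 1 on the log2 scale was found in 2.35% of the genes tested. In the RefSeq gene table of assembly GRCz12tu, vent and vox lie side by side with no gene between them and overlap no other gene.

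Within each library the 2 neighbouring repressors can be compared without reference to library size, as a ratio of counts per kb of the gene length in the deposited table. The vox to vent ratio was 25.0, 27.8 and 20.3 in mondoa-mo libraries and 3.60, 2.91 and 3.34 in mondoa-mis libraries. Its mean log2 value was 4.59 ± 0.233 in mondoa morphants and 1.71 ± 0.156 in controls (SD, n = 3 each), a difference of 2.88, or 7.39-fold. This ratio restates the opposite differences of the 2 genes and adds no separate measurement of them. Leaving out any 1 library moved the difference between 2.78 and 3.01.

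The ligand bmp2b, a Bmp required for ventral fates in zebrafish, was at 17.7, 15.6 and 17.8 CPM in mondoa-mo libraries and at 12.6, 11.9 and 13.4 CPM in mondoa-mis libraries. All mondoa-mo libraries were above all controls, by a smaller margin than for vox. The means were 17.0 ± 1.23 CPM in mondoa morphants and 12.6 ± 0.767 CPM in controls (SD, n = 3 each), a log2 fold change of 0.43 (SE 0.0931, edgeR adjusted p = 0.0055), or 1.35-fold. In the RefSeq table bmp2b overlaps fermt1, which encodes an integrin adaptor. Whether counting used strand is not given in the sources used here, so that reads of overlapping genes may not be separable. The same holds for bmp4 and gsc, which overlap uncharacterised loci in that table (2 for bmp4, 1 for gsc). The gene listed as FERMT1 (ENSDARG00000052652) had 61, 76 and 49 counts in mondoa-mo libraries and 71, 79 and 76 counts in mondoa-mis libraries (log2 fold change -0.42, edgeR adjusted p = 0.19).

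The second ligand, bmp4, was barely present in these libraries. It had 8, 4 and 5 counts in mondoa-mo libraries and 4, 3 and 3 counts in mondoa-mis libraries, corresponding to 0.216 ± 0.0365 CPM in mondoa morphants and 0.145 ± 0.0180 CPM in controls (SD, n = 3 each). It did not pass the filter on low counts. In a fit without that filter, on every gene with a count of 1 or more, its log2 fold change was 0.59 (SE 0.595, edgeR adjusted p = 0.56), and a difference in bmp4 was not detectable at this depth.

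Chordin mRNA varied strongly among mondoa morphants. The level of chrd, which encodes this secreted Bmp antagonist, was 7.42, 5.57 and 15.6 CPM in mondoa-mo libraries and 17.9, 17.9 and 14.97 CPM in mondoa-mis libraries. Replicates 1 and 2 of mondoa-mo were below every control, whereas replicate 3 was within the control range, so that the groups overlapped. The means were 9.53 ± 5.34 CPM in mondoa morphants and 16.9 ± 1.71 CPM in controls (SD, n = 3 each), a log2 fold change of -0.83 (SE 0.288, edgeR adjusted p = 0.049), or 1.78-fold lower. This call was lost with DESeq2 (adjusted p = 0.15), with any control left out (edgeR adjusted p = 0.14, 0.13 and 0.086 without mondoa-mis replicates 1, 2 and 3), and without mondoa-mo replicate 1 or 2 (0.12 each). Without mondoa-mo replicate 3 the log2 fold change was -1.37 (edgeR adjusted p = 8.7e-05).

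The organizer gene gsc, which encodes the homeodomain repressor Goosecoid, was at 5.06, 4.97 and 11.3 CPM in mondoa-mo libraries and at 4.99, 5.57 and 4.47 CPM in mondoa-mis libraries. Replicates 1 and 2 of mondoa-mo were within the control range and only replicate 3 was above it. The means were 7.13 ± 3.66 CPM in mondoa morphants and 5.01 ± 0.553 CPM in controls (SD, n = 3 each), and the log2 fold change of 0.50 (SE 0.290) did not pass the threshold (edgeR adjusted p = 0.22). It was 0.00 without mondoa-mo replicate 3 (edgeR adjusted p = 1) and 0.71 without mondoa-mo replicate 1 (edgeR adjusted p = 0.08). The coefficient of variation among mondoa-mo libraries was 51.3% for gsc and 56.0% for chrd, against 11.04% for gsc and 10.1% for chrd among mondoa-mis libraries. For vox it was 8.94% in mondoa-mo and 2.24% in mondoa-mis libraries.

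The balance of antagonist and ligand was described by the chrd to bmp2b ratio, again in counts per kb. It was 0.181, 0.154 and 0.379 in mondoa-mo libraries and 0.613, 0.651 and 0.482 in mondoa-mis libraries. Every mondoa-mo library was below every control, with replicate 3 the nearest to them. The mean log2 ratio differed by -1.40 between mondoa morphants and controls, a fold of 0.380, and leaving out any 1 library moved this difference between -1.79 and -1.14. It combines the higher bmp2b and the lower mean chrd, and replicate 3 sets its spread.

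**Figure D2:**
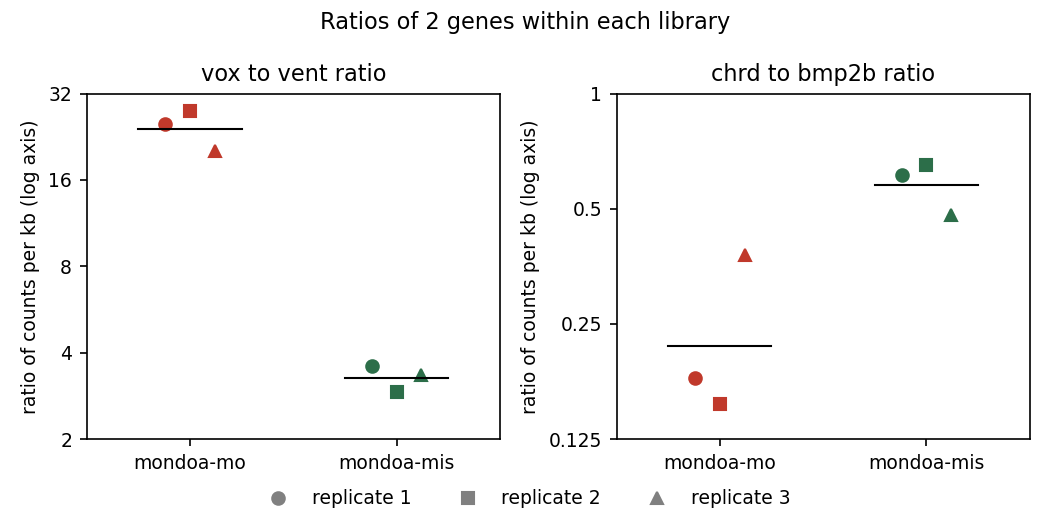
Ratios of counts per kb within each library, on log axes, for vox to vent (left) and chrd to bmp2b (right), with mondoa-mo libraries in red, mondoa-mis libraries in green, symbols for replicate numbers and lines at the mean of the log ratios. The vox to vent ratio lay between 20.3 and 27.8 in mondoa-mo and between 2.91 and 3.60 in mondoa-mis libraries.

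Ordered by level per kb of gene length, mondoa morphants had vox at 37.7 ± 3.37, bmp2b at 8.70 ± 0.630, gsc at 4.39 ± 2.25, chrd at 2.10 ± 1.18, vent at 1.59 ± 0.410 and bmp4 at 0.0724 ± 0.0122 CPM per kb (SD, n = 3). In controls the order was vox at 17.4 ± 0.388, bmp2b at 6.45 ± 0.392, vent at 5.32 ± 0.503, chrd at 3.73 ± 0.376, gsc at 3.08 ± 0.340 and bmp4 at 0.0484 ± 0.00604 CPM per kb. Among neighbours in these orders, gsc and chrd, and chrd and vent, differed by less than the sum of their SDs in mondoa morphants, as did chrd and gsc in controls. All other neighbours differed by more than that. With 3 libraries per group, a 2-sided exact permutation test on log2 CPM gave p = 0.1 for vox, vent, bmp2b and bmp4, the smallest that 20 divisions of the libraries allow, p = 0.2 for chrd and p = 0.5 for gsc.

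To place these genes in their pathways, 8 lists by role were examined, with 119 identifiers of which 99 passed the filter. The lists include the 6 genes themselves and were also chosen with earlier results of these data known, so that their share of changed genes is a description only. In total, 42 of these 99 changed (42.4%, against 32.3% of all genes tested), with 24 higher and 18 lower in mondoa morphants (21 and 22 with library size alone in place of TMM), and their median log2 fold change was 0.03, against 0.0027 over all genes. The lists did not move as a block in 1 direction, and within several of them genes of the same role moved apart. Symbols in capitals are those of the gene name table, and copies of such a gene are told apart by identifier.

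**Figure D3:**
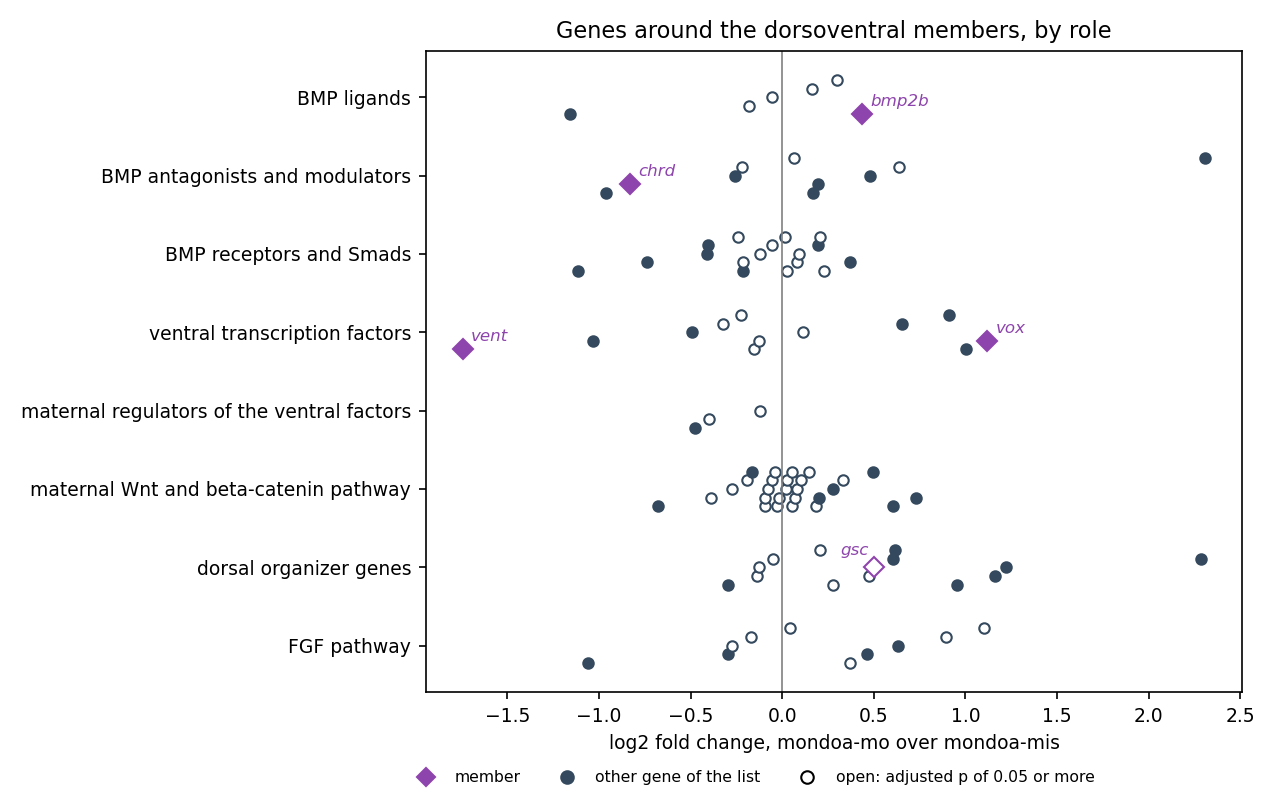
Log2 fold change (mondoa-mo over mondoa-mis) of the 99 tested genes of the 8 lists, 1 row per list, with the tested genes among the 6 as purple diamonds, the other genes as dark circles, and open symbols for adjusted p of 0.05 or more; points are shifted vertically only to separate them. Both directions occurred in most lists, and vox and vent lay at opposite ends of the ventral transcription factors.

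Of the Bmp ligands tested, 1 was higher, 1 was lower and 4 did not pass (median log2 fold change 0.05). The share called was 33.3%, against 32.3% of all genes tested. Besides bmp2b, the changed ligand was bmp6, which had 18, 16 and 36 counts in mondoa-mo libraries and 53, 42 and 47 counts in mondoa-mis libraries. Its log2 fold change was -1.16 (SE 0.316, edgeR adjusted p = 0.019), and mondoa-mo replicate 3 was again nearest to the controls. The call was lost without mondoa-mis replicate 1, mondoa-mis replicate 3 or mondoa-mo replicate 2. The gene bmp7a, whose product acts with Bmp2b in zebrafish, was at 11.6, 9.07 and 18.3 CPM in mondoa-mo libraries and at 9.93, 10.1 and 11.7 CPM in mondoa-mis libraries, with overlapping groups (log2 fold change 0.30, edgeR adjusted p = 0.31). The related ligand gdf6a had a log2 fold change of 0.16 (edgeR adjusted p = 0.38).

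Among the Bmp antagonists and modulators, 4 genes were higher, 3 were lower and 3 did not pass (median log2 fold change 0.12). The share called was 70%, against 32.3% of all genes tested. The most strongly increased was szl, which encodes Sizzled, an inhibitor of the proteases that cleave Chordin. It had 40, 24 and 21 counts in mondoa-mo libraries and 7, 4 and 4 counts in mondoa-mis libraries. The groups did not overlap, and the log2 fold change was 2.31 (SE 0.333, edgeR adjusted p = 0.00057), although it rests on few counts in the controls. Both genes listed as BMP1, a Chordin-cleaving protease, changed by little and in opposite directions, by -0.25 for ENSDARG00000028053 and 0.19 for ENSDARG00000028071 on the log2 scale (edgeR adjusted p = 0.027 and 0.033). One copy of the pseudoreceptor BAMBI (ENSDARG00000099677) was lower, with 19, 16 and 10 counts in mondoa-mo libraries and 30, 27 and 22 counts in mondoa-mis libraries (log2 fold change -0.96, edgeR adjusted p = 0.02). The more abundant copy, ENSDARG00000055381, did not pass (log2 fold change -0.22, edgeR adjusted p = 0.2). TWSG1, which encodes the Bmp- and Chordin-binding protein Twisted gastrulation, was higher (log2 fold change 0.48, edgeR adjusted p = 0.03). The protease gene tll1 had a log2 fold change of 0.07 (edgeR adjusted p = 0.83). The calls of TWSG1, of the lower BAMBI copy and of both BMP1 genes were lost with any control left out, and those of TWSG1 and both BMP1 genes also without mondoa-mo replicate 1. That of TWSG1 was also lost without mondoa-mo replicate 2 (edgeR adjusted p = 0.074), that of BAMBI with DESeq2 (adjusted p = 0.1), and that of BMP1 ENSDARG00000028071 with library size alone (edgeR adjusted p = 0.066).

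The receptors and Smads, the intracellular effectors of Bmp signalling, included 2 higher and 5 lower genes, and 10 that did not pass (median log2 fold change -0.05). The share called was 41.2%, against 32.3% of all genes tested. SMAD6 (ENSDARG00000053209), an inhibitory Smad, had 32, 33 and 20 counts in mondoa-mo libraries and 53, 67 and 47 counts in mondoa-mis libraries, a log2 fold change of -1.12 (SE 0.243, edgeR adjusted p = 0.006). The ubiquitin ligase gene smurf1, whose product targets Smads, was at 100.3, 106 and 81.5 CPM in mondoa-mo libraries and at 161, 160.2 and 158 CPM in mondoa-mis libraries. No libraries overlapped between groups (log2 fold change -0.74, SE 0.0825, edgeR adjusted p = 0.00012). The Bmp effector gene smad9 was lower by less (log2 fold change -0.41, edgeR adjusted p = 0.00027), as was the type I receptor gene BMPR1A (ENSDARG00000105045, log2 fold change -0.41, edgeR adjusted p = 0.011), whose call was lost without mondoa-mis replicate 1. The type II receptor gene acvr2bb was higher (log2 fold change 0.37, edgeR adjusted p = 0.00021). The most abundant genes of the list did not pass: smad5, the maternal Bmp effector, was at 682 ± 36.6 CPM in mondoa morphants and 641 ± 4.67 CPM in controls, and the type I receptor gene acvr1l at 252 ± 8.17 CPM in mondoa morphants and 238 ± 3.95 CPM in controls (SD, n = 3 each). Without mondoa-mo replicate 2, smad5 did pass (log2 fold change 0.12, edgeR adjusted p = 0.031).

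The list of ventral transcription factors, which holds vox and vent, had 4 higher genes, 3 lower genes and 5 that did not pass, with a median log2 fold change of -0.14. The share called was 58.3%, against 32.3% of all genes tested. The third repressor of the vox and vent family, ved, was higher, with 775, 361 and 612 counts in mondoa-mo libraries and 290, 276 and 256 counts in mondoa-mis libraries. In CPM these were 24.8, 16.6 and 25.5 in mondoa-mo and 11.9, 11.7 and 12.2 in mondoa-mis libraries (log2 fold change 0.91, SE 0.147, edgeR adjusted p = 0.0011). Of the 3 repressors, vox and ved were therefore higher and vent alone was lower in mondoa morphants. The Bmp-responsive gene id1, which encodes a helix-loop-helix inhibitor, was at 130, 104 and 152 CPM in mondoa-mo libraries and at 62.4, 65.2 and 64.8 CPM in mondoa-mis libraries (log2 fold change 1.01, SE 0.112, edgeR adjusted p = 0.00011). Every mondoa-mo library was above every control for both ved and id1. The ectodermal factor tfap2c was lower, with 64, 19 and 33 counts in mondoa-mo libraries and 65, 89 and 55 counts in mondoa-mis libraries (log2 fold change -1.03, edgeR adjusted p = 0.018), a call that was lost without mondoa-mis replicate 2. ID2 (ENSDARG00000055283) and GATA2 (ENSDARG00000059327) did not pass, with log2 fold changes of -0.32 and -0.15 (edgeR adjusted p = 0.06 and 0.2). In 6 of 13 alternatives in the processing ID2 did pass, among them DESeq2 (adjusted p = 0.047).

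Of the 3 maternal regulators upstream of the ventral repressors, 1 was lower and 2 did not pass, a share of 33.3% against 32.3% of all genes tested. The gene pou5f3, whose product activates ventral repressor genes in zebrafish, was at 687, 678 and 783 CPM in mondoa-mo libraries and at 778, 801 and 753 CPM in mondoa-mis libraries, with overlapping groups (log2 fold change -0.12, edgeR adjusted p = 0.14). Only mondoa-mo replicate 3 lay within the control range, and without it the log2 fold change was -0.19 (edgeR adjusted p = 0.0048). The gene runx2b, a maternal activator of vox, vent and ved in zebrafish, was at 4.06, 4.93 and 4.42 CPM in mondoa-mo libraries and at 6.21, 5.02 and 6.42 CPM in mondoa-mis libraries (log2 fold change -0.40, edgeR adjusted p = 0.054). Its groups did not overlap, but it narrowly missed the threshold, and it passed in 3 of 13 alternatives in the processing. Lower in mondoa morphants was ints6, which restricts the organizer in zebrafish, at 44.0, 56.6 and 48.1 CPM in mondoa-mo libraries and 69.7, 68.3 and 68.0 CPM in mondoa-mis libraries (log2 fold change -0.47, SE 0.0839, edgeR adjusted p = 0.0019).

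Of the 27 genes tested in the maternal Wnt and beta-catenin pathway, 5 were higher, 2 were lower and 20 did not pass (25.9% called, median log2 fold change 0.03). This share was below that of all genes tested. The 2 beta-catenin genes, of which ctnnb2 is required maternally for the zebrafish dorsal axis, did not pass. The level of ctnnb2 was 1933 ± 99.3 CPM in mondoa morphants and 1831 ± 43.2 CPM in controls, and that of ctnnb1 was 838 ± 44.2 CPM in mondoa morphants and 821 ± 11.6 CPM in controls (SD, n = 3 each). Higher in mondoa morphants were sybu, which encodes Syntabulin (log2 fold change 0.61, edgeR adjusted p = 0.0051), and the kinesin gene kif5ba (log2 fold change 0.28, edgeR adjusted p = 0.00053). Both act in the transport of dorsal determinants, as does Grip2a, and neither copy listed as GRIP2 passed (ENSDARG00000087187, log2 fold change 0.15, edgeR adjusted p = 0.15, and ENSDARG00000027618, log2 fold change -0.39, edgeR adjusted p = 0.35). The copy ENSDARG00000087187 did pass without mondoa-mo replicate 3 (edgeR adjusted p = 0.0032). GRIP2 lies outside the rule for named genes and was added after its values were seen. The receptor gene fzd7a rose by 0.73 and the repressor gene tcf7l1b by 0.50 on the log2 scale (edgeR adjusted p = 0.0014 and 0.0054). The ligand wnt8a is represented by 2 identifiers. ENSDARG00000078507 was at 3.10, 3.41 and 3.17 CPM in mondoa-mo libraries and 4.99, 4.72 and 5.80 CPM in mondoa-mis libraries (log2 fold change -0.68, edgeR adjusted p = 0.0043), whereas ENSDARG00000052910 did not pass (log2 fold change -0.09, edgeR adjusted p = 0.58).

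The dorsal organizer list, to which gsc belongs, had 6 higher genes, 1 lower gene and 7 that did not pass, with a median log2 fold change of 0.49. The share called was 50%, against 32.3% of all genes tested. The notochord gene noto was at 25.8, 20.2 and 38.4 CPM in mondoa-mo libraries and 12.8, 11.8 and 13.0 CPM in mondoa-mis libraries (log2 fold change 1.16, SE 0.195, edgeR adjusted p = 0.0014). The axial mesendoderm gene foxa3 was at 25.3, 22.8 and 42.6 CPM in mondoa-mo libraries and 12.9, 12.4 and 13.6 CPM in mondoa-mis libraries (log2 fold change 1.22, SE 0.204, edgeR adjusted p = 0.0014). Both were above the controls in every mondoa-mo library, and mondoa-mo replicate 3 was the highest of them. This library was likewise the highest mondoa-mo library for gsc and chrd, and also for the ventral genes vox, vent, ved and id1, so that this was not particular to organizer genes. It was not the highest for other genes of these lists, among them otx2b, lhx1a, tfap2c and ID2. Outside the rule for named genes, lhx1a was the lower gene of the organizer list. It was at 15.9, 15.8 and 14.4 CPM in mondoa-mo libraries and 17.8, 20.4 and 18.5 CPM in mondoa-mis libraries (log2 fold change -0.30, edgeR adjusted p = 0.027). Its call was lost with any control left out. The forkhead gene foxd3 had 32.2, 24.2 and 38.6 CPM in mondoa-mo libraries and 16.4, 16.9 and 15.8 CPM in mondoa-mis libraries, with replicate 3 again highest among mondoa-mo (log2 fold change 0.95, edgeR adjusted p = 0.00072). The head gene otx2b had 25, 13 and 13 counts in mondoa-mo libraries and 3, 1 and 5 counts in mondoa-mis libraries (log2 fold change 2.29, SE 0.470, edgeR adjusted p = 0.0044). The Wnt target sp5l was higher by 0.62 on the log2 scale (edgeR adjusted p = 0.015), a call lost without mondoa-mis replicate 1 or 3. The Wnt antagonist gene dkk1b did not pass (log2 fold change 0.28, edgeR adjusted p = 0.36). Outside the rule for named genes, dharma, the beta-catenin target that starts the organizer programme in zebrafish, was looked up for its role after its values were seen. It had 59, 31 and 58 counts in mondoa-mo libraries and 40, 51 and 54 counts in mondoa-mis libraries, with overlapping groups (log2 fold change -0.14, edgeR adjusted p = 0.69).

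**Figure D4:**
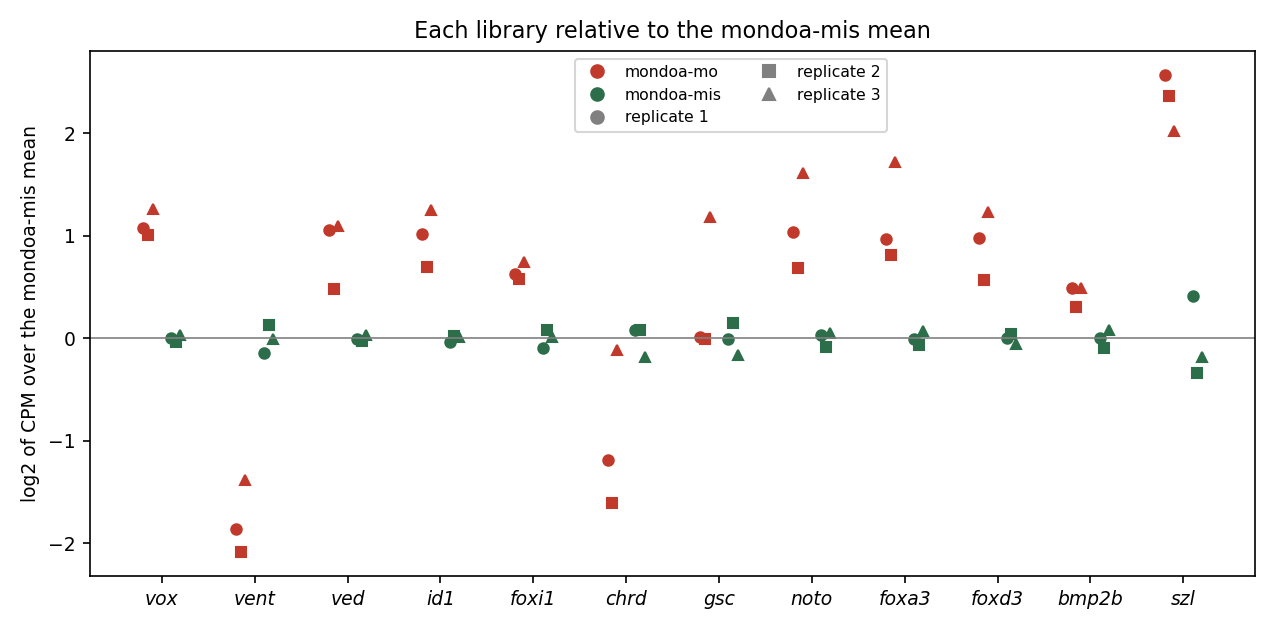
Level of 12 dorsoventral genes in each library as log2 of CPM over the mondoa-mis mean, with mondoa-mo libraries in red, mondoa-mis libraries in green and symbols for replicate numbers; foxi1, an ectodermal gene of the ventral list, was added after its values were seen. Mondoa-mo replicate 3 (triangle) was the highest mondoa-mo library for each of the 12 genes except szl, by the least margin for bmp2b, while mondoa-mis libraries stayed close to 0 except for the rarely counted szl. The 12 genes are a selection, and replicate 3 was not the highest for other genes of their lists, such as lhx1a and tfap2c.

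Among FGF pathway genes, 2 were higher, 2 were lower and 6 did not pass (median log2 fold change 0.21). The share called was 40%, against 32.3% of all genes tested. The feedback inhibitor genes dusp6 and il17rd were higher, by 0.63 and 0.46 on the log2 scale (edgeR adjusted p = 0.00089 and 0.00036). For dusp6, the levels were 58.1, 55.5 and 73.7 CPM in mondoa-mo libraries and 39.5, 41.5 and 39.6 CPM in mondoa-mis libraries. The ligand fgf17 was lower, with 35, 29 and 86 counts in mondoa-mo libraries and 110, 92 and 84 counts in mondoa-mis libraries (log2 fold change -1.06, edgeR adjusted p = 0.041). In CPM its groups did not overlap, but mondoa-mo replicate 3 approached the controls, as for chrd, and the call was lost with any library but mondoa-mo replicate 3 left out. The receptor gene fgfr1a was lower by a log2 fold change of -0.30 (edgeR adjusted p = 0.001), and fgfr4 and fgfr1b did not pass. In 2 of 13 alternatives in the processing fgfr4 did pass.

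The genes whose levels over the 6 libraries lay nearest to each of the 6 were found by Euclidean distance of log2 CPM from the control mean, among 10646 genes. This is a description of likeness in 6 libraries and carries no test. Nearest to vox were ctps1a, mych and gadd45bb, with log2 fold changes of 1.15, 1.18 and 1.03 and distances up to 0.160. Nearest to vent were bnip4, dynlrb1 (ENSDARG00000104233) and grhl3, at distances from 0.503 to 0.515, and nearest to bmp2b were ELOVL7, enox2 and NUP37, at distances up to 0.0811. Nearest to chrd were sb:cb81, the keratin gene krt4 and si:dkey-28g23.3, at distances from 0.298 to 0.482. For krt4 the levels were 5.79, 3.87 and 13.1 CPM in mondoa-mo libraries and 11.4, 11.96 and 11.98 CPM in mondoa-mis libraries. As for chrd, mondoa-mo replicate 3 was far above the other mondoa-mo libraries, but for krt4 it was also above every control. The difference in krt4 did not pass (log2 fold change -0.63, edgeR adjusted p = 0.17). Nearest to gsc were akap12b, FLRT3 and tbx16, at distances from 0.454 to 0.492. By this measure no gene lay as near to vent, chrd and gsc as others lay to vox and bmp2b. The distance is not scaled for the spread among libraries, which was wider for those genes. Among mondoa-mo libraries the coefficient of variation was 25.8% for vent, 56.0% for chrd and 51.3% for gsc, against 8.94% for vox and 7.24% for bmp2b. Distances of different genes are therefore not comparable as a measure of likeness. The few counts of bmp4 give its distances little meaning, and they are left out.

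Markers of cell types in the embryo and of its age were examined for the same libraries. Of all genes tested 32.3% changed, 16.9% higher and 15.4% lower, and the counts of changed markers stand beside these shares. The genes grhl3 and krt4, named above as near vent and chrd, are markers of the enveloping layer, the outer epithelium of the blastula. Of its 6 tested markers, 1 was higher (cldne, log2 fold change 1.16), 1 was lower (grhl3, -1.87) and 4 did not pass (33.3% changed). The summed level of all 7 markers ranged between 100.1 and 158 CPM in mondoa-mo libraries and between 188 and 197 CPM in mondoa-mis libraries, and no marker was at 0 in every library. The lower sum rested on grhl3. Without it the other 6 markers summed to 87.3, 71.6 and 125.2 CPM in mondoa-mo libraries and to 73.3, 73.5 and 76.6 CPM in mondoa-mis libraries, with mondoa-mo replicates 1 and 3 above and replicate 2 below the controls. Within this sum cldne was at 36.1, 33.1 and 48.8 CPM in mondoa-mo libraries and at 17.8, 17.4 and 17.6 CPM in mondoa-mis libraries. By contrast, krt4 and krt8 were below every control in mondoa-mo replicates 1 and 2, and krt18a.1 only in replicate 2. Both krt8 and krt18a.1 lie outside the rule for named genes. The part of the enveloping layer in the levels of vent and chrd was not tested. The 4 yolk syncytial layer markers summed to between 16.7 and 29.5 CPM in mondoa-mo libraries and between 12.6 and 13.7 CPM in mondoa-mis libraries. Of the 2 tested, mxtx1 was higher (log2 fold change 1.10) and mxtx2 did not pass (log2 fold change 0.17, edgeR adjusted p = 0.47). The genes hnf4a and slc26a1 were counted too rarely to be tested. The separation of the sums rested on mxtx1, and without it the groups overlapped. The 7 primordial germ cell markers summed to between 879 and 975 CPM in mondoa-mo libraries and between 753 and 769 CPM in mondoa-mis libraries. Of these, 4 of 7 were higher (57.1%), among them dnd1 and dazl by 0.54 and 0.48 on the log2 scale. In which cells of the embryo these mRNAs lay was not tested.

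Markers of age were present as the blastula label implies, and did not move in 1 direction. The 10 early zygotic mRNAs summed to between 451 and 543 CPM in mondoa-mo libraries, a range that held that of the mondoa-mis libraries, 480 to 501 CPM. Of these 10, 5 were higher and 3 lower (80% changed), with klf2b at a log2 fold change of 1.10 and asb11 at -1.32. The 10 maternal mRNAs summed to between 2333 and 2643 CPM in mondoa-mo libraries and between 2535 and 2574 CPM in mondoa-mis libraries. Of these, 4 were higher and 1 lower, with zar1l at a log2 fold change of 0.88 and buc at -0.81. This was 50% changed, against 32.3% of all genes tested. The level of buc was 363 ± 50.3 CPM in mondoa morphants and 637 ± 3.90 CPM in controls (SD, n = 3 each). The overlap of the maternal sums rested on buc, and without it every mondoa-mo library summed above every control. The part of developmental age in the differences of the 6 genes was not tested.

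Across 13 alternatives in the processing, vox, vent and bmp2b kept their direction and passed the threshold in each, with log2 fold changes between 1.05 and 1.16 for vox, between -1.95 and -1.62 for vent and between 0.39 and 0.48 for bmp2b. The adjusted p of bmp2b reached 0.04. The level of gsc did not pass in any, with adjusted p between 0.08 and 1. The number of changed genes in the 8 lists was 26, 29 and 27 without mondoa-mis replicates 1, 2 and 3, against 42 with all libraries.

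**Figure D5:**
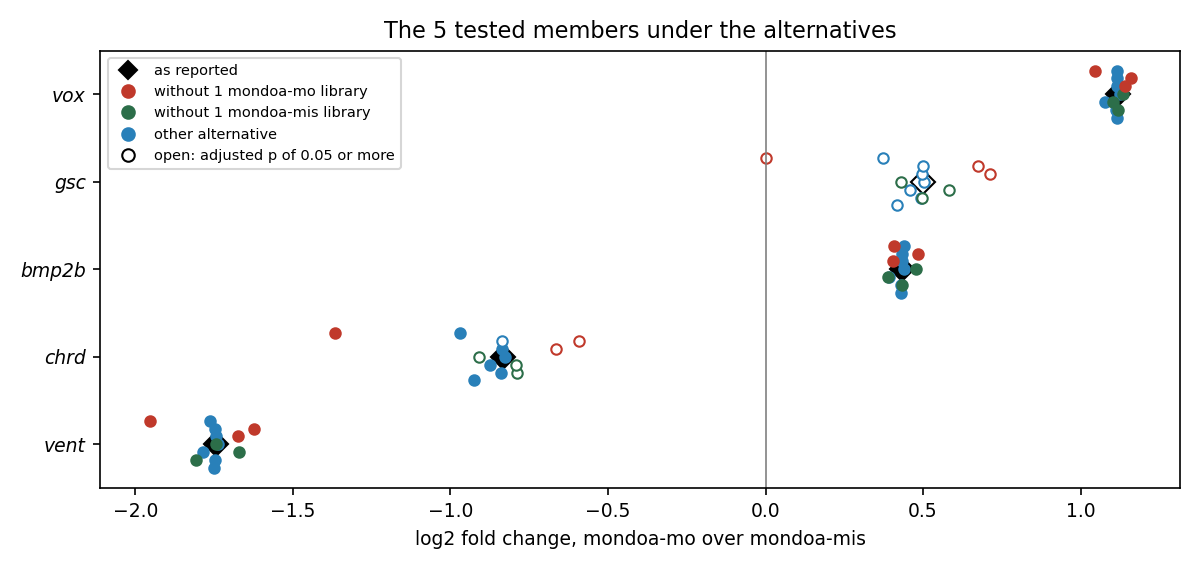
Log2 fold change (mondoa-mo over mondoa-mis) of the 5 tested genes as reported (black diamonds) and under each of the 13 alternatives (circles), with red and green for fits that left out 1 mondoa-mo or 1 mondoa-mis library, blue for the others, and open symbols for adjusted p of 0.05 or more. The points of chrd spread between -1.37 and -0.59 and those of gsc between 0.00 and 0.71, whereas vox stayed between 1.05 and 1.16.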

How the data were processed

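RNA was isolated with TRIzol and turned into TruSeq mRNA libraries, of which 50 nucleotides per end were read. The authors aligned these reads to GRCz11 using STAR 2.3.8 and deposited raw counts of uniquely mapped pairs per gene with a gene length. Here these counts were tested in R 4.3.3 with edgeR 4.0.16 (filterByExpr, TMM, quasi-likelihood test without covariates, Benjamini-Hochberg adjustment over all genes tested, threshold 0.05). The SE is the log2 fold change divided by the square root of the F statistic. Low counts limit bmp4, szl and otx2b most. Alternatives included DESeq2 1.42.0 and limma 3.58.1. The test was checked on simulated counts with the same spread in both groups, so that the check does not cover the unequal spread of these libraries.

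The 6 genes and all lists were chosen with earlier results of these data known. Named in each list were up to 5 called genes with the largest change and no overlap, and the 2 most abundant uncalled ones. In marker lists these were up to 2 called genes, and for each of the 6 genes the 3 nearest genes averaging 100 counts or more. Names came from a gene name table, the study's supplementary tables and RefSeq (GRCz12tu, names and neighbours only), matching 29046 of 32054 identifiers. Of 119 listed symbols 116 were matched, and nog1, nog3 and kzp were not analysed here. All 6 count columns were mapped by their labels.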

Additional observations from a re-analysis of the deposited data

How the results depend on the processing

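Precision was limited by 3 libraries per condition, by the wide spread among mondoa-mo libraries and, for bmp4, szl and otx2b, by few counts. The alternatives were RLE size factors, library size alone, 2 other filters on low counts, DESeq2, voom with group weights, a block for the replicate number, and fits without 1 library, and none reversed the direction of the 5 tested genes. The log2 fold change of chrd was -0.84 with DESeq2 (adjusted p = 0.15), and between -1.365 and -0.5911 with 1 library left out, where only the fit without mondoa-mo replicate 3 passed. Leaving out 1 library gave 26 to 46 changed genes in the 8 lists, 18 to 26 of them higher and 8 to 20 lower, from 3 to 4 changed among the 6 genes, and 3119 to 5832 changed genes in all. The lowest of these came from leaving out a control, with 3275, 3119 and 3173 genes without mondoa-mis replicates 1, 2 and 3. With library size alone, 21 list genes were higher and 22 lower, and of all genes 2137 were higher and 2870 lower, against 2621 and 2396 with TMM. Of the 42 changed list genes, 25 passed in every alternative that tested them, and of the 57 others 12 passed in at least 1. The causes were not tested.

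Deviations from the group means correlated at 0.0334, 0.0272 and 0.0481 between mondoa-mo and mondoa-mis libraries with the same replicate number. Between libraries with different numbers the correlations ranged from -0.0333 to -0.000894. Each mondoa-mo library thus correlated best with its own number, although all of these values were small. Deviations from a group mean cancel within the group by construction. The values for different numbers are therefore not independent of those for the same number. The sources do not say whether same-numbered libraries were prepared together, and this was not tested. With the replicate block, 46 list genes and 5281 genes in all changed, and chrd had a log2 fold change of -0.92 (edgeR adjusted p = 0.0094).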
